A study of Mus musculus with 4 samples.

Results

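Marker genes of T cells, macrophages and other myeloid cells, and mast cells were examined in a melanoma line, together with Ptprc, the gene for the surface phosphatase CD45 that nearly all leukocytes carry. The set was chosen by gene name: 36 of the 27668 gene names on the array, read by 59 of its 41174 probes, of which 53 carried the current symbol in the files, 5 an older symbol and 1 was found through its RefSeq accession. It comprises 15 T cell genes, Ptprc, 15 macrophage and myeloid genes and 5 mast cell genes. The samples were cultures of B16-F10, a pigmented mouse melanoma line, from passages 14, 16, 18 and 19, grown in high-glucose DMEM with fetal bovine serum, and the labels name no other cells in the culture. In each of 4 biological replicates, cells exposed to a goat polyclonal anti-TIM3 antibody, called agonist in the labels, were labelled with Cy5, and cells of the same passage exposed to unspecific goat IgG were labelled with Cy3. Exposure was 15 ug/ml for 2 h in vitro, although for the anti-TIM3 sample of replicate 3 the labels do not repeat the dose. Both samples of a replicate were hybridised to 1 Agilent 2-colour array, so each array gave the signal of both channels and 1 log2 ratio of anti-TIM3 over IgG. No array had its dyes exchanged and all 4 lay on 1 slide in 1 scan, so an effect of the antibody and an effect of the dye on a probe cannot be told apart.

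TIM-3 is known from T cells, macrophages, dendritic cells and mast cells, where it limits or modulates activation. The markers divide by role. In T cells the antigen receptor signals through the CD3 chains and the CD247 zeta chain, whose tyrosine motifs (ITAMs) are phosphorylated by LCK, which rides on the coreceptors CD4 and CD8, and then recruit ZAP70. Myeloid and mast cells use small ITAM adaptors in the same way: FCER1G serves Fc receptors, including the high-affinity IgE receptor of mast cells, and TYROBP, also called DAP12, serves receptors such as those of the TREM family. Neither pathway is a usual part of a melanoma cell.

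The results turn on a few probes, whose sequences are shown 5′ to 3′ as the files give them, with positions in the files' build mm7. Exons and untranslated regions are not annotated in the files. Tyrobp has 1 probe, shown whole because it was the most changed of the set; it lies on chromosome 7 between 27358831 and 27360558, a span longer than its 60 bases, so in this build its target is interrupted.
Tyrobp probe: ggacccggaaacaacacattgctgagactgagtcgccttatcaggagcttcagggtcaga
The pair of Cd8b1 probes moved in opposite directions, and the first 30 bases of each are shown because they lie on different chromosomes. The first lies on chromosome 6 between 71355005 and 71355063, and the other on chromosome 5 between 114364254 and 114364313.
Cd8b1 probe on chromosome 6: ggaccctggagaagactgcaaatcctcaca
Cd8b1 probe on chromosome 5: gccatgatccagggaatgaaaagaaatttg
The Lyz2 probes, of which only 1 was bright, lie on chromosome 10 at 116785279 to 116785338 (bright) and at 116790004 to 116790063, with starts 4725 bases apart, and their first 30 bases are given.
Lyz2 bright probe: cttaagttccttcattcacactaactctga
Lyz2 other probe: aacgttgtgagtttgccagaactctgaaaa
Fcer1g was the only marker with several probes for which each was detected in Cy3. Its probes on chromosome 1 overlap by 8 bases, in capitals here, so the pair reads nearly adjacent stretches: 171199808 to 171199880, of which the last 30 bases are shown, and 171199756 to 171199815, of which the first 30 are shown.
Fcer1g upper probe: ctctacatcagtgtacactggcAGGTCCCC
Fcer1g lower probe: AGGTCCCCatctccgttaaagacttactca

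The first question was which leukocyte markers gave a signal in the IgG-treated cells. A gene was counted as detected in a channel when at least 1 of its probes was flagged well above background by the scanner software on at least 3 of the 4 arrays. By this rule 12 of the 36 markers (33.3%) were detected in Cy3, against 51.3% of all gene names. In Cy5, where the anti-TIM3 sample was read, 20 markers (55.6%) were detected, against 64.3% of all gene names. The 12 detected in Cy3 were all among those 20, and 16 markers were detected in neither channel. The same rule found 14 of 15 melanocyte genes in Cy3 and all 15 in Cy5, so the labelled cell type was read through its own markers. Lists of genes of 4 unrelated tissues (liver, skeletal muscle, erythroid cells and neurons) gave 6 of 31 (19.4%) in Cy3 and 14 of 31 (45.2%) in Cy5. Lists for B, NK and dendritic cells and neutrophils gave 5 of 32 (15.6%) and 12 of 32 (37.5%). These shares are descriptions of fixed lists, with no test between them, and no list has the same probe affinities as another.

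**Figure D1:**
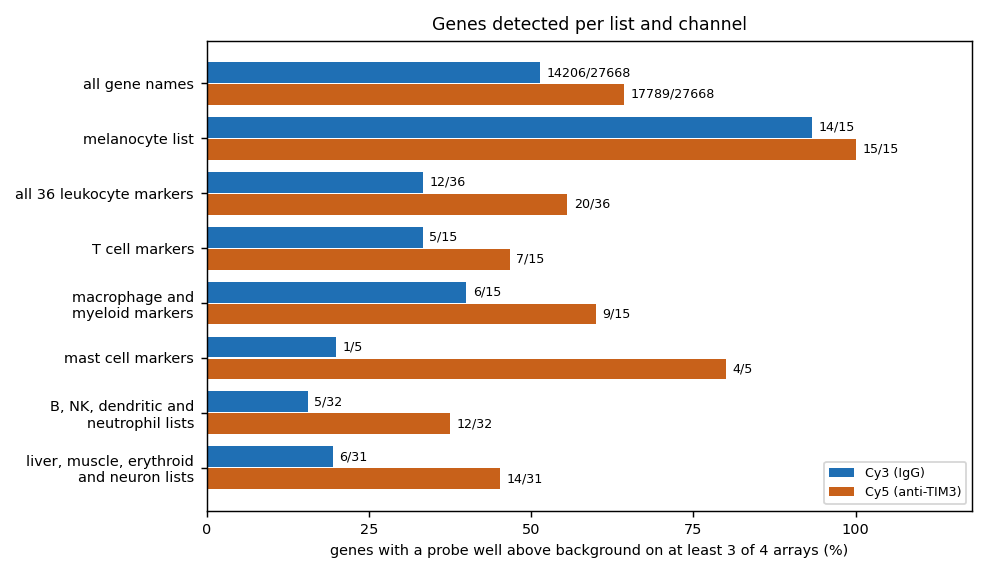
Share of genes (x axis, percent, from 0) with a probe well above background on at least 3 of 4 arrays, by list (y axis), for the IgG channel (Cy3, blue) and the anti-TIM3 channel (Cy5, orange); the fractions give detected genes over genes on the array. The 36 leukocyte markers reached 33.3% in Cy3 and 55.6% in Cy5, below all gene names (51.3% and 64.3%), and the melanocyte list 93.3% and 100%.

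Over all probes, 21144 to 22043 were flagged in Cy3 per array and 25656 to 28393 in Cy5. Of the 59 marker probes, 13 to 15 per array were flagged in Cy3 and 21 to 29 in Cy5. Most detected markers were dim: the brightest tested probe of each of the 12 had a Cy3 signal of 1.41 to 8.40 times the median of the negative control spots of its array (median over the 12 genes, 1.98). Among the 46 marker probes not detected in Cy3 this ratio ran from 0.909 to 1.41, with a median of 1.06, so the lowest detected and the highest undetected probe met. On single arrays they overlapped: Tpsb2, not detected in Cy3, reached 1.74 in replicate 4, and the detected Fcer1a probe fell to 1.36. For the melanocyte list the corresponding median was 90.2, with the lowest gene at 1.33. Probes differ in affinity, so these ratios show distance from background and do not rank transcripts.

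**Figure D2:**
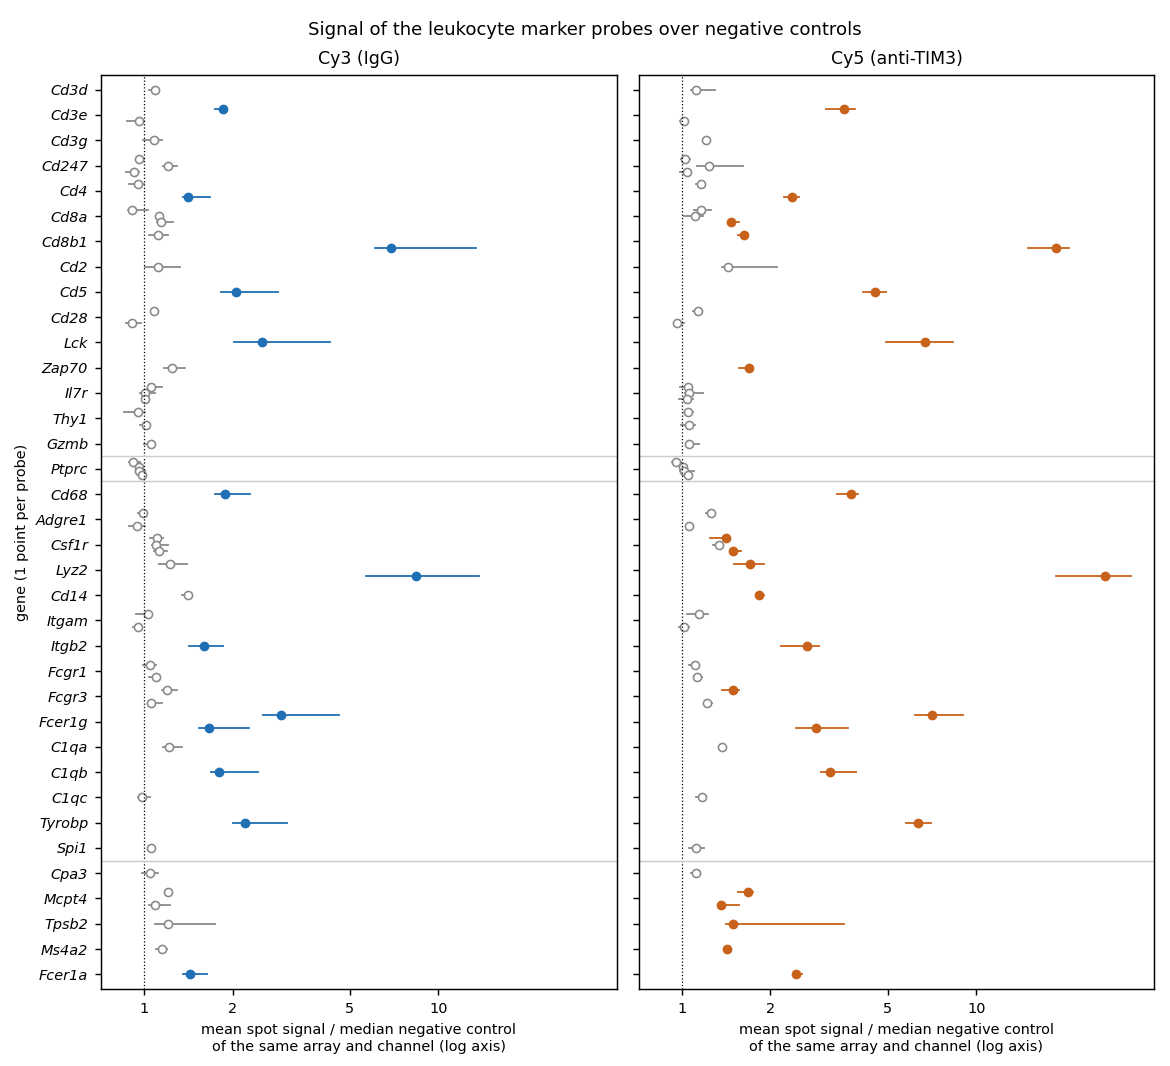
Mean spot signal of each of the 59 marker probes divided by the median negative control of the same array and channel (x axis, log scale), for Cy3 (left) and Cy5 (right), with genes on the y axis in the order T cell, Ptprc, myeloid and mast cell; points are medians and lines the range over 4 arrays, filled and coloured where the probe was well above background on at least 3 arrays. Only 1 probe each of Cd8b1 and Lyz2 lay above 5 in Cy3 on every array, and the 4 Ptprc probes lay between 0.892 and 1.02.

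The CD3 complex was represented in part. Cd3e, which encodes its epsilon chain, was detected in Cy3 on 4 of 4 arrays, with signals of 1.89, 1.87, 1.74 and 1.82 times the negative controls in replicates 1 to 4. Its second probe was flagged on no array in either channel and gave 0.880 to 0.998 in Cy3. The genes of the other chains, Cd3d, Cd3g and Cd247, were detected in neither channel, and their 5 probes gave 0.870 to 1.30 in Cy3 and 0.991 to 1.61 in Cy5. A signal from 1 of 2 Cd3e probes therefore stood beside the lack of a detectable signal from the genes whose products assemble with it.

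The coreceptor genes showed the same split between probes. Cd4 was detected in Cy3 at 1 probe, at 1.68, 1.36, 1.37 and 1.46 times the negative controls, while its other probe gave 0.893 to 1.000 and was flagged on no array. That brighter Cd4 probe was printed in 10 spots, and 33 of its 36 usable spot values over the 4 arrays were flagged in Cy3 and 36 in Cy5, so the detection rests on repeated spots. Cd8a was not detected in Cy3 at any of its 3 probes and was detected in Cy5 at 1, where 34 of 37 spot values of that 10-spot probe were flagged, against 0 of 37 in Cy3. Cd8b1 was detected in Cy3 through the chromosome 5 probe alone, at 13.4, 6.57, 6.07 and 7.26 times the negative controls. Its chromosome 6 probe gave 1.21, 1.04, 1.09 and 1.15 and was flagged on no array in Cy3 and on all 4 in Cy5.

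Among the signalling kinases, Lck was detected on all arrays, at 4.28, 2.55, 2.02 and 2.47 times the negative controls in Cy3 and 8.32, 8.07, 4.93 and 5.29 times in Cy5. Zap70 was not flagged in Cy3 on any array and was flagged on 4 in Cy5. Cd5, a surface inhibitor of antigen receptor signalling, was detected in Cy3 at 2.86, 1.83, 2.00 and 2.12 times the negative controls. The adhesion receptor gene Cd2, the costimulatory receptor gene Cd28, the interleukin 7 receptor gene Il7r, Thy1 and the granzyme gene Gzmb were detected in neither channel. Cd2 came closest, with flags on 1 array in Cy3 and 2 in Cy5. Ptprc was flagged at none of its 4 probes on any array, and their Cy3 signals of 0.892 to 1.02 times the negative controls spanned the controls' own median. One of those Ptprc probes was printed in 10 spots, of which 0 of 32 usable spot values were flagged in either channel.

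The myeloid markers detected in Cy3 were mostly genes of lysosomal, complement and adaptor proteins. Lyz2, the lysozyme gene of macrophages and neutrophils, gave 13.7, 8.71, 5.66 and 8.09 times the negative controls at its bright probe, and its other probe was flagged on no array in Cy3 and on 4 in Cy5. The brighter probe of Fcer1g gave 4.61, 2.88, 2.53 and 2.95 times, and its second at 2.27, 1.60, 1.54 and 1.75. Tyrobp gave 3.07, 2.00, 2.07 and 2.33 times. Cd68, a lysosomal membrane glycoprotein gene, gave 2.30, 1.82, 1.74 and 1.97. Itgb2, the gene of the beta-2 integrin chain, gave 1.86, 1.55, 1.42 and 1.65. Itgam, the gene of the alpha chain that pairs with it in CR3, was flagged at neither of its probes on any array.

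C1qb was the only gene of complement C1q detected, at 2.45, 1.69, 1.73 and 1.86 times the negative controls in Cy3. C1qa was flagged on no array in Cy3 and on 2 in Cy5, and C1qc on none in either channel. The remaining myeloid surface receptor genes and Spi1 were not detected in Cy3. Adgre1 (the F4/80 antigen), Fcgr1 (the high-affinity IgG receptor) and Spi1 (encoding the myeloid transcription factor PU.1) were flagged on no array in either channel at any probe. Csf1r (the receptor of the macrophage growth factor), Cd14 (the lipopolysaccharide coreceptor) and Fcgr3 (a low-affinity IgG receptor) were detected in Cy5 only, Cd14 with a flag on 1 array in Cy3.

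Among the mast cell genes only Fcer1a, which encodes the IgE-binding chain, was detected in Cy3, at 1.64, 1.36, 1.39 and 1.5 times the negative controls. Ms4a2, the gene of the beta chain of that receptor, and the protease genes Mcpt4 and Tpsb2 were detected in Cy5 only, and the carboxypeptidase gene Cpa3 in neither channel. Of the IgE receptor genes, those of the alpha and gamma chains were thus detected in both channels and that of the beta chain in Cy5 only. Detection was more common in Cy5 over all gene names (64.3% against 51.3% in Cy3). The log2 ratio of Ms4a2 was -0.03 and did not pass (limma, adjusted p = 0.573).

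Probes of 1 marker often disagreed. Of the 17 markers with at least 2 probes, 5 had a probe detected in Cy3, and for 1 of those (20%, Fcer1g) every probe was detected. Among all 8919 gene names with at least 2 probes, 6838 had a detected probe and 57.7% of these had every probe detected. The difference was not tested. Base composition moved with detection: the median GC content was 46.7% for the 13 marker probes detected in Cy3 and 42.5% for the other 46, and 43.3% and 38.3% for all probes detected and not detected. Its part in the marker calls was not tested. A run of at least 15 bases shared with a probe of another gene name occurred in 9 of the 59 marker probes (15.3%), against 18.5% of all probes.

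Positions bear on the pair of Cd8b1 probes. RefSeq (GRCm38.p6) places Cd8b1 on chromosome 6, where the files put the dim probe. The bright probe, which the files name Cd8b1 from a cDNA clone, starts 2022 bases from a probe of Mlec, the gene of the endoplasmic reticulum lectin malectin, and 4115 bases from another. Both Mlec probes were detected on all arrays in both channels, with mean log2 ratios of 0.02 ± 0.09 and -0.04 ± 0.07 (SD, n = 4; limma, adjusted p = 0.681 and 0.436). Whether the bright probe reads a Cd8b1 transcript was not tested. Without it, 11 of the 36 markers would have been detected in Cy3. Mlec, which is no leukocyte marker, is named because of its position.

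The second question was whether any marker differed between the anti-TIM3 and IgG samples. Tyrobp, Lyz2 and Lck rose, and Cd8b1 (at its brighter probe) and Cd14 (at a probe near background in Cy3) fell, the most by 1.26-fold. The brighter Cd8b1 probe lies on chromosome 5, away from the gene's RefSeq chromosome. The dim Cd8b1 probe on chromosome 6 was called in the other direction. The genes called were 5 of the 20 markers with a tested probe (25%), against 27.6% of the 17789 gene names tested and 27.8% of the probes. A probe was tested if at least 3 arrays had it well above background in Cy3 or in Cy5. Each gene was read at its brightest tested probe, and a call is an adjusted p under 0.05 (limma on the log2 ratios against 0, Benjamini-Hochberg over all 26543 tested probes). The share of markers called was close to that of all genes, so the count does not set the markers apart. The median log2 ratio of the 20 was 0.02, beside 0.01 for all gene names, and the median absolute ratio was 0.04, beside 0.08. Of the 20, 8 were detected in Cy5 only, and the part of low signal in the smaller absolute ratio was not tested. The other 16 markers had no probe bright enough to be tested. Replicates here are passages of 1 line, and 4 arrays limit the precision. The p-values and intervals rest on the spread between passages, which limma draws towards that of all tested probes.

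**Figure D3:**
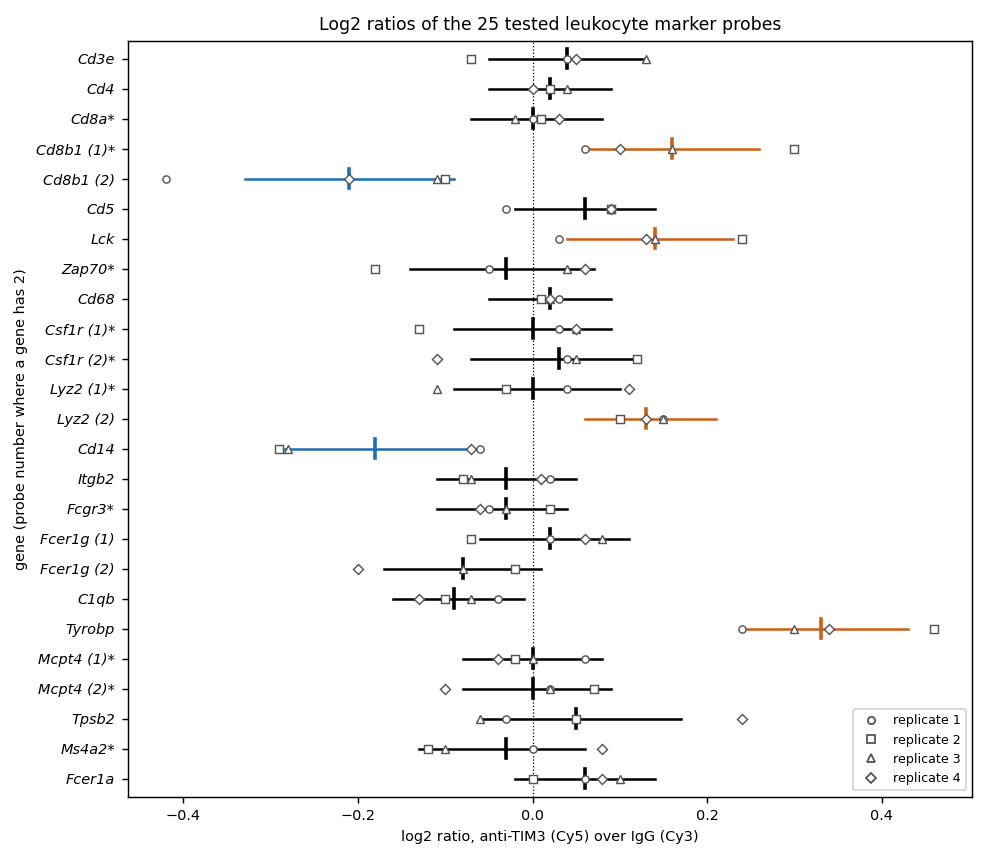
Log2 ratio of anti-TIM3 (Cy5) over IgG (Cy3) on each of 4 arrays (symbols) for the 25 tested marker probes (y axis), with the mean (vertical tick) and 95% confidence interval (line); orange marks probes that rose, blue those that fell, black those that did not pass, and an asterisk a probe on no array well above background in Cy3. Tyrobp lay between 0.24 and 0.46, and most other means lay within 0.10 of 0.

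Tyrobp had the largest ratio of the set. The Cy3 signals of its probe were 307, 176, 169 and 176 units in replicates 1 to 4 and the Cy5 signals 376, 347, 285 and 269, before background correction. The normalised log2 ratios were 0.24, 0.46, 0.30 and 0.34, above 0 on 4 of 4 arrays and lowest in replicate 1. Their mean was 0.33 ± 0.09 (SD, n = 4), a 1.26-fold difference, with a 95% confidence interval from 0.24 to 0.43 and an adjusted p of 0.00136. Hcst, the neighbouring gene, which encodes the adaptor DAP10 and whose probe starts 2189 bases away, was flagged on no array in either channel. Tyrobp was the 1 marker that passed without each replicate in turn (0.29 to 0.37), with the deposited signals (0.47, adjusted p = 0.0128) and with trends on base composition and intensity removed (0.38, adjusted p = 0.00117). It passed in 13 of 15 alternatives, failing with median centring in place of loess (adjusted p = 0.749) and against a minimum change of 1.2-fold (adjusted p = 1).

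Lck rose by less and with a wider relative spread. Its log2 ratios were 0.03, 0.24, 0.14 and 0.13, with replicate 1 near 0 and replicate 2 highest, and a mean of 0.14 ± 0.09 (SD, n = 4; 95% interval from 0.04 to 0.23; adjusted p = 0.0368). The call ended without replicate 2, 3 or 4 (adjusted p = 0.159, 0.0909 and 0.0947). It also ended with the deposited signals (0.14, adjusted p = 0.0569) and with trends removed (0.09, adjusted p = 0.0861). The Lck probe shares 15 bases with a probe of Hmga2, a chromatin protein gene detected in Cy3 on all arrays, whose log2 ratio was 0.15 (adjusted p = 0.0201). Among the 9 marker probes with such a run, the dim Lyz2 probe shares 16 bases with a probe of Angpt2 and a Csf1r probe 15 with 1 of Vsig2. The Angpt2 and Vsig2 probes were also well above background in Cy3 on all arrays, and the Lyz2 and Csf1r probes that share with them on none. Hmga2 was singled out after its values were seen, and the part of such sequence sharing in the Lck signal was not tested.

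The Cd8b1 probe on chromosome 5 was lower on 4 of 4 arrays, with log2 ratios of -0.42, -0.10, -0.11 and -0.21. Replicate 1 lay far below the others, and the mean was -0.21 ± 0.15 (SD, n = 4; 95% interval from -0.33 to -0.09; adjusted p = 0.0198). Without replicate 1 the mean was -0.14 (adjusted p = 0.0450), and without replicate 4 the call ended (adjusted p = 0.0587). The chromosome 6 probe, not well above background in Cy3 on any array, had a log2 ratio above 0 that passed (limma, adjusted p = 0.0308). Its measured means were 6.77 in Cy5 and 6.62 in Cy3 on the log2 scale after between-array normalisation. A lower bound on the difference, which was not itself tested, was 1.02-fold. That bound sets the mean of the bright channel against the floor of detectable signal in the dim channel, and with dyes not exchanged it is open to dye bias. Its call ended without replicate 2, 3 or 4 (adjusted p = 0.132, 0.0702 and 0.0578). With median centring it lay at -0.12 relative to the median of all probes, the opposite sign. The mean over both probes did not pass. Because the probes lie on different chromosomes, that mean cannot be read as a value of Cd8b1, and no direction is given for the gene here.

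Lyz2 rose at its bright probe, with log2 ratios of 0.15, 0.10, 0.15 and 0.13, the tightest values among the markers that were called. The mean was 0.13 ± 0.02 (SD, n = 4; 95% interval from 0.06 to 0.21; adjusted p = 0.0188). Its other probe did not pass (adjusted p = 0.946) and, being flagged on no array in Cy3, gives no fold. The call of the bright probe ended without replicate 3 or 4 (adjusted p = 0.0713 and 0.0606), when the tested probes of the gene were averaged, and with the deposited signals (0.12, adjusted p = 0.0794). Lyz1, the neighbouring lysozyme gene, was detected on all arrays with a log2 ratio of 0.00 (adjusted p = 0.990), and its probe shares no run longer than 5 bases with the bright Lyz2 probe.

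Cd14 had log2 ratios of -0.06, -0.29, -0.28 and -0.07, so replicates 2 and 3 were about equally low and replicates 1 and 4 near 0. The mean was -0.18 ± 0.13 (SD, n = 4; 95% interval from -0.29 to -0.06; adjusted p = 0.0294). The probe was well above background in Cy3 on only 1 array and in Cy5 on 4, so the size of this difference rests on Cy3 signals near background. It is not among the probes tested when both channels had to be well above background on all arrays. With that filter 4 of 12 tested markers (Cd8b1, Lck, Lyz2 and Tyrobp) were called, beside 6836 of 20554 probes. The Cd14 call also ended without replicate 2 or 3 (adjusted p = 0.112 and 0.0995), with the deposited signals (-0.23, adjusted p = 0.0714) and with trends removed (-0.13, adjusted p = 0.0994).

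**Figure D4:**
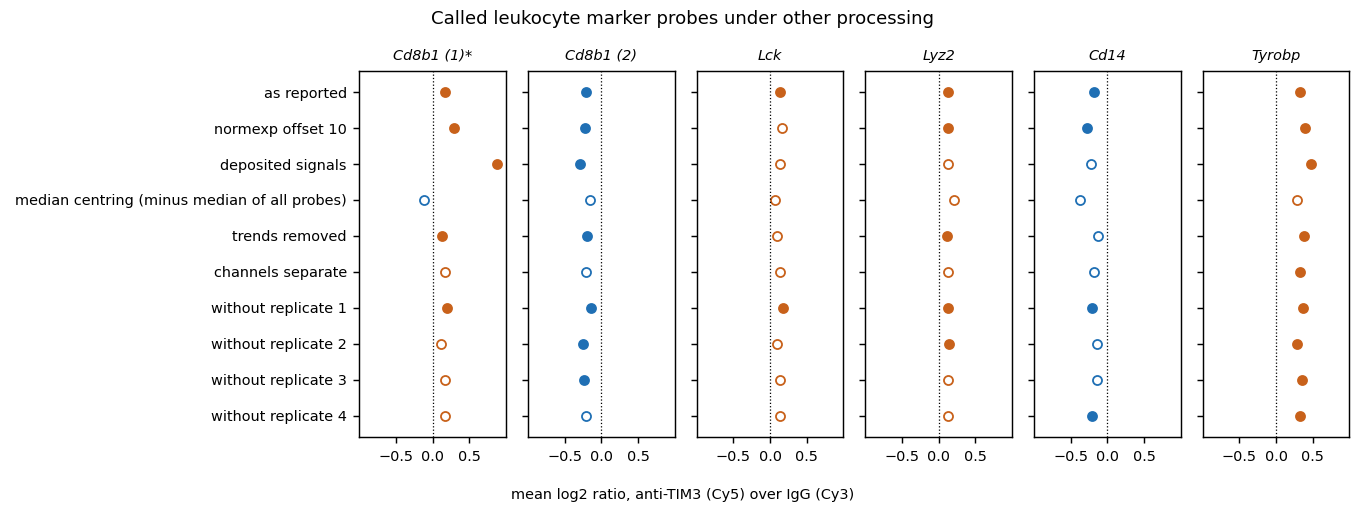
Mean log2 ratio of anti-TIM3 over IgG (x axis) of the 6 called marker probes under 10 ways of processing (y axis), filled where the adjusted p was under 0.05 and open where not; orange is above 0, blue below, Cd8b1 (1) is the chromosome 6 probe (asterisk: on no array well above background in Cy3) and Cd8b1 (2) the chromosome 5 probe. Tyrobp stayed filled in all but median centring, where its value relative to the median of all probes was 0.28, and the chromosome 6 Cd8b1 probe reached 0.87 in the deposited signals.

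The other 15 tested markers did not pass, with mean log2 ratios from -0.09 to 0.06 at their brightest tested probe. C1qb came closest, at -0.04, -0.10, -0.07 and -0.13, below 0 on 4 of 4 arrays (-0.09 ± 0.04; adjusted p = 0.0893). Its 95% interval ran from -0.16 to -0.01. Fcer1a had 0.06, 0.00, 0.10 and 0.08 (0.06 ± 0.04; adjusted p = 0.221). Cd3e had 0.04, -0.07, 0.13 and 0.05, values on both sides of 0 (adjusted p = 0.514). Cd4 and Cd68 were the most even, with SDs of 0.01 and 95% intervals from -0.05 to 0.09 for each. The Fcer1g probes had means of 0.02 and -0.08, and neither passed (adjusted p = 0.657 and 0.152). The interval of each such gene holds for this processing alone and does not show that the gene was equal in both samples. For some dim probes the deposited signals gave values outside the interval. Cd8a lay at 0.25 there, beside an interval from -0.07 to 0.08.

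Spots of 1 probe gave close log2 ratios after this processing, at 4 probes whose Cy3 signals were near background. Their closeness does not give the precision of brighter probes. For the 10-spot probes of Cd4, Cd8a, Cd28 and Ptprc the SD of the log2 ratio between spots on an array was 0.03 to 0.15, and the SD of the array means was 0.01 to 0.03. For the 1-spot probes the spread within an array is not known.

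The deposited processed signals, a different background correction and dye normalisation, called 4 markers (18.9% of gene names were called there). Cd8a and Tyrobp rose, and Cd8b1 (at its chromosome 5 probe) and C1qb fell. For the dimmest probes the 2 processings gave different sizes. Cd8a had a deposited log2 ratio of 0.25 ± 0.11 (adjusted p = 0.0367), beside 0.00 ± 0.02 after normexp and loess, and lay at -0.28 relative to the median of all probes with median centring. The chromosome 6 Cd8b1 probe had 0.37, 1.49, 0.96 and 0.66 there (0.87 ± 0.48; adjusted p = 0.0389), and a Mcpt4 probe 0.51 ± 0.23 (adjusted p = 0.0296), beside 0.00 ± 0.07. None of these was well above background in Cy3 on any array. C1qb had -0.19 ± 0.09 (adjusted p = 0.0476). With trends on base composition and intensity removed, 25.7% of gene names and 5 markers were called, among them Cd4 (0.10) and Cd5 (0.11) in place of Lck and Cd14. With median centring Cd4 lay at -0.17 and Cd5 at -0.03 relative to the median of all probes.

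Genes that act with the markers were read from 3 lists. Of 18 genes of T cell receptor signalling, 11 were detected in Cy3 and 14 tested, of which 3 rose and 0 fell at an adjusted p under 0.05 (limma); among all gene names 14.8% rose and 12.8% fell. The 3 were Malt1 (0.28 ± 0.07, adjusted p = 0.00179), a protease that carries the signal to NF-kB, Nck1 (0.16 ± 0.10, adjusted p = 0.0259), an adaptor, and Ptpn22 (0.15 ± 0.08, adjusted p = 0.0227), a phosphatase. With the deposited signals the Nck1 call ended (0.14, adjusted p = 0.136) and Ptpn22 was at 0.67. Of 20 genes of ITAM and Fc receptor signalling, 7 were detected and 10 tested. Lyn, a Src family kinase, rose (0.23 ± 0.14, adjusted p = 0.0111) and Syk, the kinase that ITAMs recruit in myeloid cells, fell (-0.15 ± 0.09, adjusted p = 0.0288), a call that ended with the deposited signals (-0.19, adjusted p = 0.0583). Of 20 complement and phagocyte genes, 13 were detected and 14 tested, and 4 rose and 2 fell. C1ra, a complement protease gene, rose (0.24 ± 0.10, adjusted p = 0.00526), as did the cathepsin gene Ctsb (0.20 ± 0.08, adjusted p = 0.00830), while Ctsd fell (-0.20 ± 0.04, adjusted p = 0.00495). The median log2 ratios of the lists were 0.01, 0.03 and 0.06, beside 0.01 for all gene names.

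Havcr2, the gene of TIM-3 itself, was detected on all arrays in both channels at 1 probe and had log2 ratios of 0.02, 0.09, 0.05 and 0.00 there (0.04 ± 0.04; adjusted p = 0.4). Its other probe was flagged on 0 arrays in Cy3 and 1 in Cy5. In Cy3 the receptor gene was thus read, like Cd3e, Cd4 and Lyz2, from 1 of 2 probes.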

How the data were processed

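Spot intensity of both channels was taken from the deposited scanner files. Their headers name Feature Extraction 9.5.1.1, and the submitters' processing notes version 9. The deposited value table gives the log10 ratio (Cy5 over Cy3) after spatial detrending and dye normalisation, per the file headers. Here, mean signals were corrected by normexp (offset 50) with the local median background and normalised by loess within each array, with control spots at weight 0 and outlier spots left out. Spots of a probe were averaged. The log2 ratios entered limma (3.58.1, R 4.3.3) as a two-sided test of the mean against 0, adjusted by Benjamini-Hochberg over the 26543 probes tested, and the steps were checked on simulated ratios. Probes were named through RefSeq (GRCm38.p6); coordinates are the files' own (mm7). All 36 members are named, with up to 3 called genes per pathway list. The markers, lists and tests were chosen with earlier results of these data known. Alternatives covered background, normalisation, filter, outlier spots, weights, variance prior, pairing, minimum change, gene summary, detection rule and each replicate left out. Removing trends on base counts and intensity was added after the data had been seen. Promoter and protein sequences were not used here.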

Additional observations from a re-analysis of the deposited data

Results flagged for a closer look

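In 2 of the 25 tested marker probes 1 array lay far from the other 3, a gap that chance gives in about 1 in 20 groups. The log2 ratio of Cd5, a surface inhibitor of antigen receptor signalling, was -0.03 in replicate 1 and 0.09 in each of the others. That of the dimmer tested probe of Csf1r, the gene of the macrophage growth factor receptor, was -0.13 in replicate 2 and 0.03 to 0.05 in the others, and this probe was well above background in Cy3 on no array. Neither gene passed the test (limma, adjusted p = 0.247 and 1).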

How the results depend on the processing

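The main settings called 7376 probes and 5 markers, with a marker median of 0.02 and 12 markers detected in Cy3. Fitting Cy3 and Cy5 as separate samples, with no replicate block for the pairing on an array, left 581 probes and 1 marker (Tyrobp). With median centring in place of loess, limma called 0 probes and 0 markers (1006 probes and Tyrobp alone at an unadjusted p under 0.05), the median of all probes moved to 0.15 and the marker median lay at -0.18 relative to it. Against a minimum change of 1.2-fold, 56 probes and 0 markers passed (409 and 0 unadjusted). With no filter on dim probes 9 of 36 markers passed (4 higher, 5 lower), beside 7868 of 41174 probes, and the marker median was -0.03. In the deposited signals it was 0.04. With all tested probes of a gene averaged, 3 of 20 markers passed (Tyrobp, Lck and Cd14). The share of all gene names that passed was not counted for that setting, so this count has no background beside it. Leaving out 1 replicate gave 4222 to 6110 probes, 2 to 5 markers, medians of 0.01 to 0.02 and 12 detected markers each time. Without replicate 2, Cd8b1, Lyz2 and Tyrobp passed; without 3, Cd8b1 and Tyrobp; without 4, Cd14 and Tyrobp. Detection counted 20 markers above the 95th percentile of the negative controls (62.6% of gene names) and 20 in Cy5. With trends removed, Cd4 (0.10, adjusted p = 0.0365) and Cd5 (0.11, adjusted p = 0.0415) rose. As rounded, none of the 6 marker probes called with the main settings took the opposite sign against 0 under these alternatives. With median centring, however, all probes had a median of 0.15, and the chromosome 5 Cd8b1 probe was at 0.00 against 0. Relative to that median the chromosome 6 Cd8b1 probe lay at -0.12, the opposite sign to its main value. Against 0, Cd4 was at -0.02 with median centring. Cd8a and a Mcpt4 probe, called at 0.25 and 0.51 in the deposited signals, were at -0.13 and -0.17 there. The remaining alternatives kept the counts within 1.5 times. The causes were not tested. Signals near background limit every statement on the dim probes.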
